A study of Arabidopsis thaliana with 16 samples.

Results

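Of the 22746 probe sets on the ATH1 GeneChip that are not controls, 68 (0.299%) were high in Arabidopsis explants at both times on auxin medium and low in both kinds of embryo. They were found on the wild-type (WT) arrays alone. Every one of the 4 induction arrays had to show a signal of at least 200 and at least 4 times the highest of the 4 embryo arrays, and the mean signals of the 2 induction times had to lie less than 2-fold apart. The annotation used here pairs 35 of the 68 with 1 gene and the other 33 with none, and the pattern is called the induction pattern below.

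The study followed indirect somatic embryogenesis in WT plants of the ecotype Columbia-0 (Col-0) and in the mutant *vtc2* in the same ecotype. The methods give the mutant allele as *vtc2-5*, a line homozygous for a T-DNA insertion in *VTC2*, which encodes a step of ascorbate (vitamin C) synthesis, so that its tissues are low in ascorbate. It is 1 insertion line, and no complemented line was profiled. Bent-cotyledon zygotic embryos (ZE) were taken before culture, explants at day 7 (D7I) and day 14 (D14I) of callus induction with the synthetic auxin 2,4-D, and mature somatic embryos (SE) after 14 d more on medium without hormone. The 4 stages and 2 genotypes make 8 groups of 2 arrays, which the labels call biological replicates, and a p value below measures only the spread between such pairs.

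Auxin enters plant cells and joins the TIR1/AFB receptors to the Aux/IAA repressors, which are then destroyed, and the genes they held down are transcribed. Early targets include the *GH3* genes, whose enzymes join amino acids to auxin and other hormones, and the *Aux/IAA* genes themselves. 2,4-D persists in tissue longer than natural auxin and causes explants to form callus, a mass of dividing cells from which embryos can later arise once the hormone is withdrawn.

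The values are signals on a linear scale, with the 2% trimmed mean of every array set to 500. The median of all probe sets was 148 to 199 per array, and 69.2 to 78.1% of probe sets were above a signal of 30, below which a value is treated as weak. The 2 arrays of a group correlated at r = 0.922 to 0.962 across probe sets on the log2 scale, lowest in WT SE. A listed gene counts as measured here only if the annotation used pairs a probe set with that gene alone. That holds for 13513 of the 22746 probe sets, so a gene not measured may still be on the array. Of 14 green leaf markers, the 2 measured (*PSAN* and *LHCB4.2*) had summed signals of 17819 to 21640 in ZE arrays, 12.7 to 104 in induction arrays and 1292 to 4127 in SE arrays. Those of 4 of 7 stomatal genes were 850 to 1142 in ZE arrays, 17.9 to 114 in induction arrays and 50.7 to 231 in SE arrays. Most of the ZE sum was *STOMAGEN*, at 657 to 912. *SPCH* was at 135 to 213 in ZE arrays and at most 20.3 in the others. *FMA* changed little, with 34.0 and 56.8 in WT ZE and 29.9 and 52.1 in WT D7I, and *MUTE* was weak in all arrays. *BAN*, the 1 of 7 seed coat genes measured, was at 108 to 532 in ZE arrays and at most 15.4 in the others. Of 7 root hair genes the 2 measured, *EXPA7* and *EXPA18*, summed to 17.5 to 99.5 over all 16 arrays. No listed marker of root meristem, endodermis or vascular tissue was measured in this sense, so these sources of a transcript were not tested. In whole tissue, fewer cells of a type and less RNA per cell cannot be told apart.

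In WT tissues the median of the 68 group means was 37.8 in ZE, 1205 in D7I, 1148 in D14I and 86.3 in SE. These WT values chose the members and are a description. The ratio of the lowest induction array to the highest embryo array ran from 4.03 to 55.3 with a median of 6.58. Just inside the limit of 4 were the chitinase gene *ChiC* at 4.03 and *AT1G33590* at 4.05. Just outside it were *AT4G22530* at 3.98, *AT2G29995* at 3.87 and *EXPA8* at 3.82. The limit was set by SE more often than by ZE, since the highest embryo array was an SE array for 54 of the 68, and in 37 of those it was the WT array of SE replicate 2. Without that array 99 probe sets met the rule.

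**Figure D1:**
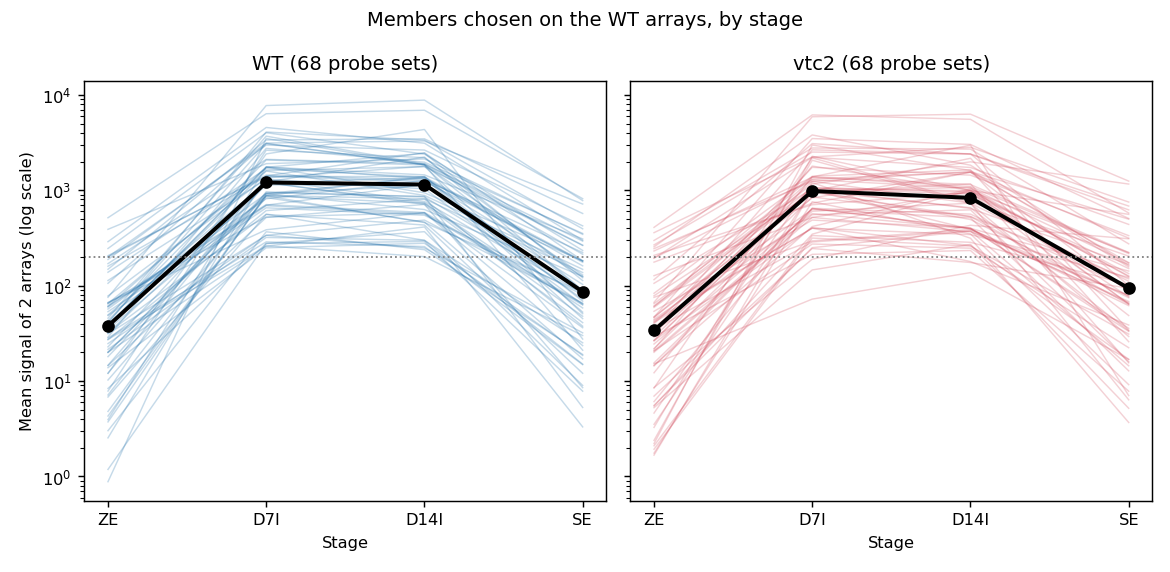
Mean signal of the 2 arrays (log axis) at each stage for the 68 probe sets, in WT (left) and *vtc2* (right), with 1 thin line per probe set, the median of the 68 in black and the signal limit of 200 dotted. The WT values chose the set, and the *vtc2* medians run 33.9, 981, 833 and 93.8 from ZE to SE.

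The *vtc2* arrays took no part in the choice. In them the medians of the 68 were 33.9 in ZE, 981 in D7I, 833 in D14I and 93.8 in SE. The 4 induction arrays all lay above the 4 embryo arrays for 66 of the 68, against 18.3% of all probe sets. Compared by limma within the *vtc2* arrays, with a change called at an adjusted p under 0.05 and at least 2-fold, all 68 members were higher in D7I than in ZE, where 18.3% of all probe sets were. Their median difference was 4.71 on the log2 scale, and that of all probe sets was 0.19. All 68 were also higher in D14I than in ZE (19.6% of all probe sets), by a median of 4.33. Against SE, 63 were higher in D7I (12.3% of all probe sets) and 61 in D14I (11.4%), by medians of 3.37 and 2.94, and none was lower at D7I or D14I (11.5 and 11.6% of all probe sets were). In all 4 of these tests together 59 members passed, 29 of them paired with a gene. The group means of 32 members were below 30 in *vtc2* ZE, and the size of a difference from so weak a signal is uncertain.

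Of the 8 members with a gene symbol, *GH3.1* (AT2G14960) and *WES1* (AT4G27260, also *GH3.5*) are *GH3* genes. The enzyme of *WES1* joins amino acids to auxin and to salicylic acid. In WT the gene read 409 and 621 in ZE, 6587 and 6086 in D7I, 6245 and 7541 in D14I, and 1001 and 630 in SE. In *vtc2* it read 415 and 401 in ZE, 5879 and 6430 in D7I, 5792 and 5281 in D14I, and 586 and 567 in SE. The 4 induction arrays of each genotype thus stood well apart from the embryo arrays, which were themselves well above a weak signal. In *vtc2* the gene rose by 3.91 ± 0.15 (log2 difference ± standard error; adjusted p = 8.35e-05 from limma) from ZE to D7I and was 3.26 ± 0.15 higher in D14I than in SE (adjusted p = 5.29e-04 from limma).

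*GH3.1* was near the bottom of the scale in every embryo array. Its WT signals were 8.83 and 20.4 in ZE, 908 and 1505 in D7I, 702 and 717 in D14I, and 11.4 and 5.69 in SE. Its *vtc2* signals were 2.83 and 6.41 in ZE, 939 and 1466 in D7I, 330 and 297 in D14I, and 4.54 and 2.82 in SE. At D7I the genotypes overlapped, and at D14I both *vtc2* arrays were below both WT arrays by 2.27-fold. In *vtc2* it rose by 8.11 ± 0.48 from ZE to D7I (adjusted p = 2.23e-04 from limma), or by 5.12 when 30 is added to every signal before the logarithm. From D7I to D14I its difference in *vtc2* was -1.90 ± 0.48 with an adjusted p of 0.0944 from limma, so that the fall did not pass. It passed when 30 was added to every signal.

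Other early auxin genes were measured beside them, 13 in all with these 2 included. In *vtc2*, 9 of the 13 were higher and 2 lower in D7I than in ZE, where 18.3 and 12.6% of all probe sets were, with a median of 2.28 against 0.19. In D14I against SE 9 were higher and 1 lower, where 11.4 and 11.6% of all probe sets were, with a median of 1.69 against 0.16. The *Aux/IAA* gene *IAA29* rose by 5.95 from ZE to D7I. *GH3.3* rose by 3.75 and was 1.71 higher in SE than in ZE. *GH3.9* moved the other way and fell by 6.60 from ZE to D7I. Of 4 genes that regulate lateral root founding and callus, 2 were higher in D7I than in ZE and none was lower (18.3 and 12.6% of all probe sets). These 2 were *LBD16* and *PUCHI*, by 3.90 and 4.95. The embryo regulator *BBM* differed by 0.39 (adjusted p = 0.22 from limma), and the remaining gene did not pass either. Against SE, 3 of the 4 were higher at D7I and 3 at D14I (12.3 and 11.4% of all probe sets), and none was lower. *BBM* read 530 and 464 in *vtc2* D7I, 625 and 855 in D14I, and 107 and 129 in SE. None of the 4 is a member.

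*EXPA9* (AT5G02260) encodes an expansin, a protein that loosens cell walls as cells grow. Its WT signals were 78.9 and 50.6 in ZE, 1488 and 1726 in D7I, 1692 and 1842 in D14I, and 248 and 280 in SE. In *vtc2* they were 51.9 and 42.4, then 895 and 769, then 1468 and 1627, then 157 and 192. Both *vtc2* arrays lay below both WT arrays at D7I, D14I and SE. The gene rose by 4.14 ± 0.20 from ZE to D7I in *vtc2* and was 3.16 ± 0.20 higher in D14I than in SE. Of 29 expansin and xyloglucan endotransglucosylase genes measured, 10 were higher and 4 lower in D7I than in ZE in *vtc2*, against 18.3 and 12.6% of all probe sets. *EXPA9* alone of the 29 was higher in D14I than in SE and 6 were lower, against 11.4 and 11.6% of all probe sets. In D7I against SE, 6 of the 29 were higher and 6 lower (12.3 and 11.5% of all probe sets). *EXPA8* and *EXLA2* rose by 6.28 and 7.06 from ZE to D7I but differed from SE at D14I by 1.07 and 0.45, neither of which passed. In WT, *EXPA8* lay just outside the rule, with a ratio of 3.82.

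*GSTU25* (AT1G17180) encodes a tau class glutathione S-transferase, an enzyme group that joins glutathione to reactive and foreign compounds. The signals were 49.1 and 27.1 in WT ZE, 1711 and 1771 in D7I, 2550 and 2329 in D14I, and 94.8 and 131 in SE. In *vtc2* they were 32.7 and 33.8, then 3076 and 2226, then 2174 and 2643, then 106 and 94.7. The D7I arrays of *vtc2* were above those of WT, and the D14I arrays overlapped. It rose by 6.30 ± 0.22 from ZE to D7I in *vtc2* and was 4.58 ± 0.22 higher in D14I than in SE. Of 14 glutathione S-transferase genes measured, 4 were higher and 6 lower in D7I than in ZE (18.3 and 12.6% of all probe sets), and 2 were higher and 7 lower in D14I than in SE (11.4 and 11.6%). *GSTU20* fell by 5.89 from ZE to D7I.

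**Figure D2:**
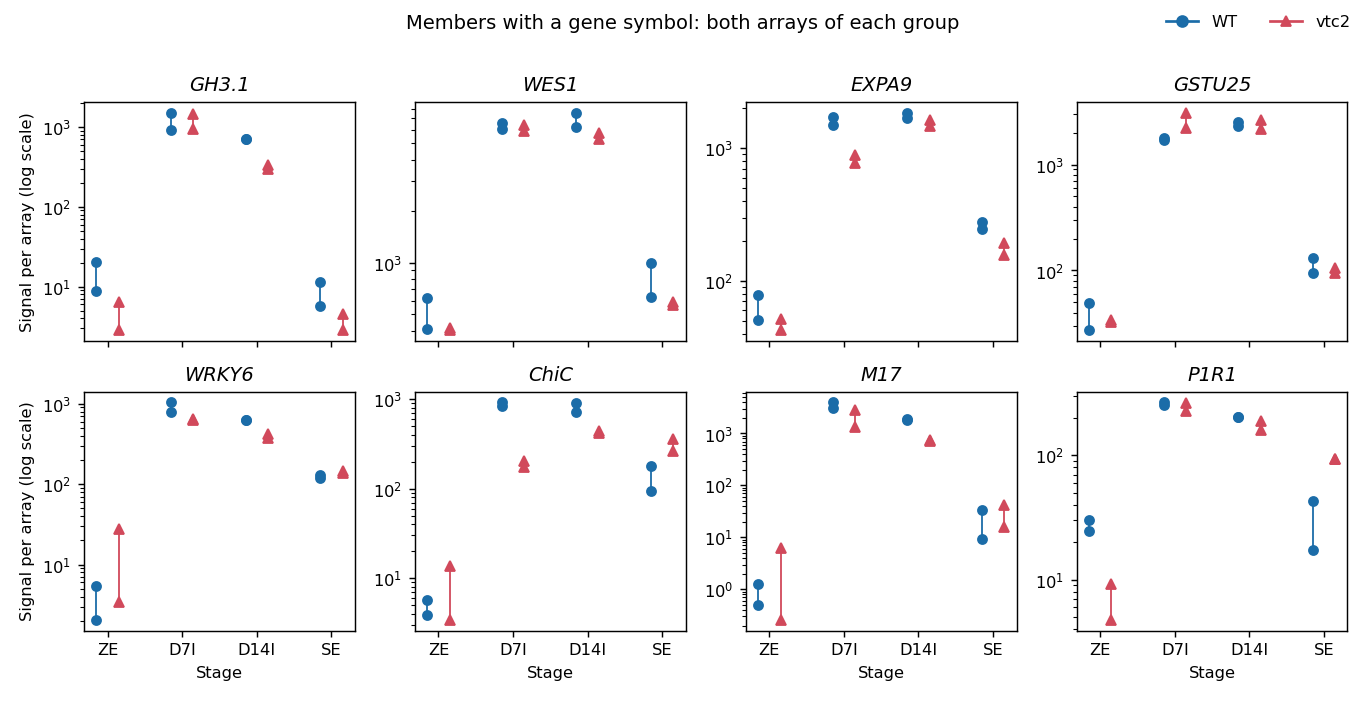
Signal of each array (log axis, a separate range in each panel) by stage for the 8 members with a gene symbol, WT as circles and *vtc2* as triangles, the 2 arrays of a group joined by a line. *WES1* and *GSTU25* lie high at both induction times in both genotypes, whereas *ChiC* in *vtc2* is at 203 and 176 in D7I and at 355 and 265 in SE.

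*WRKY6* (AT1G62300) encodes a transcription factor known from senescence and defence. It read 5.41 and 2.05 in WT ZE, 794 and 1037 in D7I, 622 and 633 in D14I, and 130 and 119 in SE. In *vtc2* the signals were 27.6 and 3.39, then 635 and 651, then 426 and 371, then 137 and 147. All induction arrays were above all embryo arrays in both genotypes, and all ZE arrays were weak. In *vtc2* it rose by 6.05 ± 0.92 from ZE to D7I (adjusted p = 0.00455 from limma). Its differences from SE, 2.18 at D7I and 1.48 at D14I, did not pass (adjusted p = 0.128 and 0.273 from limma), and both passed when 30 was added to the signals. It was the single member among 73 regulators of the WRKY, MYB, NAC, bHLH and homeobox families, of which 8 were higher and 4 lower in D7I than in ZE, against 18.3 and 12.6% of all probe sets.

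*ChiC* (AT4G19810), a class V chitinase gene whose enzyme cuts the chitin of fungal walls, departed most from the induction pattern in *vtc2*. WT signals were 3.86 and 5.75 in ZE, 920 and 840 in D7I, 729 and 902 in D14I, and 93.7 and 181 in SE. The *vtc2* signals were 3.42 and 13.7 in ZE, 203 and 176 in D7I, 438 and 421 in D14I, and 355 and 265 in SE. Thus the *vtc2* D7I arrays were below the *vtc2* SE arrays, and its ratio of lowest induction to highest embryo array, 0.496, was the lowest of the 68. It rose by 4.79 ± 0.63 from ZE to D7I in *vtc2* (adjusted p = 0.00279 from limma). The differences from SE were -0.70 at D7I and 0.49 at D14I, and neither passed. A list of defence genes, which holds *WRKY6* but not *ChiC*, had 20 genes measured. Of these 20, 6 were higher and 2 lower in D7I than in ZE (18.3 and 12.6% of all probe sets), and 1 was higher and 6 lower in D14I than in SE (11.4 and 11.6%).

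*M17* (AT2G41260) belongs to the late embryogenesis abundant genes, which are known from ripening seeds. Here it was at 0.491 and 1.27 in WT ZE, 3950 and 3025 in D7I, 1865 and 1820 in D14I, and 9.17 and 32.9 in SE. In *vtc2* it was at 0.258 and 6.28, then 1351 and 2771, then 738 and 718, then 42.6 and 16.0. Its ratio of 55.3 was the highest of the 68 in WT. It rose by 10.57 ± 1.49 from ZE to D7I in *vtc2* (adjusted p = 0.00348 from limma), or by 5.89 with 30 added to the signals. Its difference of 4.80 between D14I and SE missed the threshold (adjusted p = 0.0588 from limma), and that between D7I and SE, 6.21, passed but was lost when any 1 array of D7I, D14I or SE was left out. *P1R1* (AT5G57780) was at 256 and 266 in WT D7I and 202 and 202 in D14I. In *vtc2* SE it was at 93.4 and 94.1, above the 42.8 and 17.2 of WT SE, and its difference between D14I and SE of 0.89 did not pass (adjusted p = 0.0926 from limma).

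The other 27 members paired with a gene carry a locus name only, and no function is given for them here. The WT signals of *AT2G47780* were 66.6 and 84.2 in ZE, 8606 and 6834 in D7I, 8253 and 9347 in D14I, and 211 and 1347 in SE. The 2 WT SE arrays were thus far apart, while both *vtc2* SE arrays, at 1189 and 1303, were near the higher of them. In *vtc2* it rose by 6.46 ± 0.21 from ZE to D7I and was 2.33 ± 0.21 higher in D14I than in SE.

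*AT1G12030*, *AT2G34080* and *AT5G54370* had some of the sharpest contrasts. *AT1G12030* read 2.48 and 2.60 in WT ZE and 2.66 and 1.77 in *vtc2* ZE. It then read 1539 and 1286 in WT D7I and 2367 and 2573 in WT D14I, and the order was turned in *vtc2*, with 3116 and 2839 in D7I and 1558 and 1662 in D14I. In SE both genotypes were between 141 and 203. *AT2G34080* was at 1.37 to 4.38 in all ZE arrays, at 1665 to 2323 in all D7I arrays, at 908 to 1346 in all D14I arrays and at 83.5 to 243 in all SE arrays. *AT5G54370* was at 8.58 and 46.5 in WT SE and 3.1 and 11.0 in *vtc2* SE, against 4044 and 4623 in WT D14I and 3096 and 2841 in *vtc2* D14I. In *vtc2* the rise from ZE to D7I was 10.42 for *AT1G12030* and 10.04 for *AT2G34080*, and 6.54 and 6.15 with 30 added. *AT5G54370* was 8.99 higher in D14I than in SE, or 6.35 with 30 added.

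Some members kept a clear level in embryos. *AT1G33590* was at 169 and 207 in WT ZE and 752 and 681 in WT SE, against 3051 to 3324 in the WT induction arrays. *AT1G23040* was at 415 and 363 in WT ZE and 299 and 391 in WT SE, and at 1734 to 2524 in the WT induction arrays. *AT4G01870* was at 710 and 793 in *vtc2* SE, above its 427 and 420 in WT SE, and at 2176 to 2854 in the *vtc2* induction arrays. For these 3 genes all *vtc2* tests of induction against embryos passed, with differences of 1.32 to 3.24 that do not rest on weak signals. That of *AT1G23040* between D7I and SE, 1.32, no longer passed without either D7I array or without SE replicate 1.

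Somatic and zygotic embryos differed for part of the members, and for 30 of the 68 no difference was called in *vtc2*. In *vtc2*, 34 of the 68 were higher in SE than in ZE and 4 were lower, where 16.3 and 12.7% of all probe sets were, and the median difference was 1.33 against 0.01 for all probe sets. Of the 34, 20 had a *vtc2* ZE mean below 30. Among those paired with a gene the largest differences were *AT1G12030* at 6.17, *AT2G34080* at 5.78 and *ChiC* at 5.49. *P1R1* was 3.83 higher, *EXPA9* 1.89 and *GSTU25* 1.59. From ZE to SE *AT5G10130* decreased by 2.60 and *AT1G47980* decreased by 1.69. *AT5G10130* read 101 and 55.4 in *vtc2* ZE and 24.9 and 6.13 in *vtc2* SE, and its call was lost when any 1 of 7 arrays was left out. Among the named members, 11 of the 19 calls between SE and ZE stood under every alternative tried.

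Applied to the *vtc2* arrays, the same rule found 65 probe sets, 0.286% of the total. Of the 68 WT members, 27 met it in *vtc2*, which is 39.7% of the WT set and 41.5% of the *vtc2* set. *WES1*, *EXPA9* and *GSTU25* are among the 27, and so are *AT4G36600*, *AT5G59100*, *AT5G60530*, *AT4G00750*, *AT1G47980* and *AT1G12030*. Of the 41 that did not, 28 fell short of the 4-fold limit, 15 had induction times 2-fold or more apart and 7 had an induction array below 200, with 7 of the 41 failing in more than 1 way. For 24 of the 28 the highest *vtc2* embryo array was an SE array. With the limits on signal and fold only, 37 of the 68 passed in *vtc2*, against 0.378% of all probe sets. The 38 probe sets that met the rule in *vtc2* but not in WT include *IAGLU*, whose enzyme joins glucose to auxin. It read 698 and 859 in *vtc2* D7I and 1546 and 991 in *vtc2* D14I, against 261 and 196 in WT D7I and 779 and 703 in WT D14I. In SE it read 163 and 167 in *vtc2* and 348 and 264 in WT, so that the WT SE arrays lay above the WT D7I arrays.

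**Figure D3:**
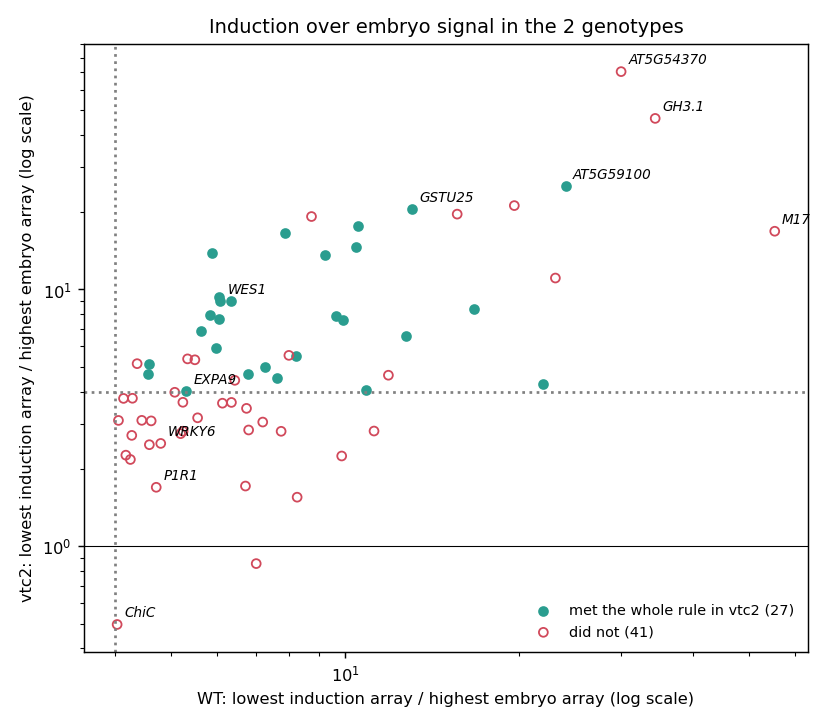
Ratio of the lowest induction array to the highest embryo array in *vtc2* (vertical, log axis) against the same ratio in WT (horizontal, log axis) for the 68 probe sets, with the 4-fold limit dotted and filled circles for the 27 that met the whole rule in *vtc2*. The WT ratio is at least 4.03 by choice, and the *vtc2* ratio runs from 0.496 for *ChiC* to 70.5 for *AT5G54370*.

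Between the genotypes, the induction signals of the members were lower in *vtc2* at D14I. Both *vtc2* arrays were below both WT arrays for 51 of the 68 and above them for 1, where 19.6 and 21.5% of all probe sets were. The median difference was -0.40 on the log2 scale, a 1.32-fold lower level, against 0.02 for all probe sets. The largest differences among genes with a symbol were those of *M17* (2.53-fold lower), *GH3.1* (2.27-fold), *ChiC* (1.89-fold) and *WRKY6* (1.58-fold). *WES1* was 1.24-fold lower, and the *GSTU25* arrays overlapped. At D7I, 35 were below and 14 above (27.2 and 28.9% of all probe sets), with a median of -0.33. With each array centred on its median the counts were 40 and 8 (34.9 and 21.8% of all probe sets). Without centring, *ChiC* differed at D7I by -2.22 on the log2 scale. *AT4G18920*, with signals of 251 and 323 in *vtc2* D7I against 1272 and 1136 in WT, differed by -2.08. *AT1G12030* was 1.08 higher.

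High WT induction signals were a condition of the choice, so these differences are a description with no test. The 65 probe sets chosen by the same rule on the *vtc2* arrays give the opposite balance at D7I, with 32 above WT and 19 below. At D14I 33 of the 65 were below and 15 above. These 65 include the 27 that met the rule in both genotypes, for which high WT induction signals were a condition too. Among the 27, 20 were below and none above at D14I, with a median of -0.34, and 11 were below and 7 above at D7I. The 27 thus hold 20 of the 33 below and none of the 15 above at D14I. Without them the probe sets chosen on the *vtc2* arrays, for which high *vtc2* signals were a condition, did not lean below WT. In SE, 22 of the 68 were above WT and 13 below (18.9 and 32.4% of all probe sets), and 26 and 8 after median centring or 23 and 8 after quantile normalization. In ZE the counts were 6 above and 14 below (15.8 and 17.4%), and 11 and 13 after quantile normalization. The SE median of 0.16 became -0.11 without WT SE replicate 1, and that of -0.05 in ZE became 0.09 under quantile normalization.

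**Figure D4:**
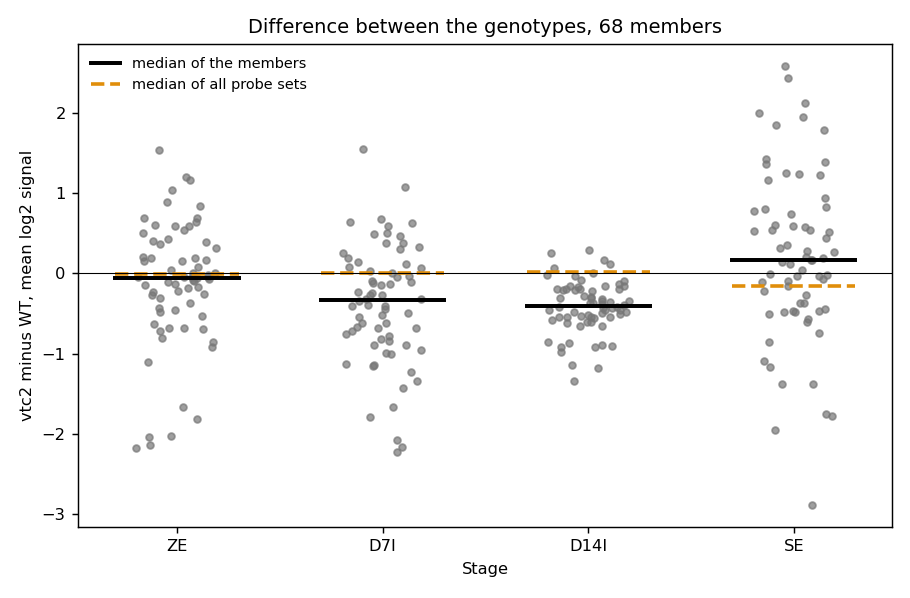
Difference between the genotypes (mean log2 signal of *vtc2* minus that of WT) at each stage, with 1 point per member, the median of the 68 as a solid line and that of all probe sets as a dashed line. The members' medians are -0.05 in ZE, -0.33 in D7I, -0.40 in D14I and 0.16 in SE.

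Over the second week of induction the rule held the WT means less than 2-fold apart. The 2 D14I arrays of WT were above the 2 D7I arrays for 16 members and below them for 25, against 28.6 and 31.4% of all probe sets. In *vtc2*, where no such limit was set, they were above for 21 and below for 32 (28.2 and 29.9% of all probe sets). By limma 1 member rose and 1 fell in *vtc2* (1.04 and 1.83% of all probe sets), both without a gene. One rose by 1.53 (adjusted p = 0.0331 from limma) from 357 and 336 to 1096 and 909. The other fell by 1.35 (adjusted p = 0.0449 from limma) from 868 and 1125 to 426 and 355. The count was 13 with 30 added to the signals and 0 whenever 1 *vtc2* array was left out.

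The largest differences in each direction among members paired with a gene did not pass. *GH3.1* differed by -1.90, *AT4G37295* by -1.54 (adjusted p = 0.0532 from limma) and *M17* by -1.41 between D14I and D7I in *vtc2*. *AT1G10530* differed by 1.31, *ChiC* by 1.19 and *AT5G54370* by 1.11. When 30 was added to every signal, the differences of all of these genes passed. That of *AT4G37295* also passed under quantile normalization. *AT4G37295* read 1841 and 2529 in *vtc2* D7I and 609 and 897 in D14I, and 1725 and 1775 in WT D7I and 1034 and 845 in WT D14I, so that its D14I arrays were lower in each genotype. *AT1G10530* read 423 and 410 in *vtc2* D7I and 1091 and 974 in D14I, and in WT 987 and 855, then 1405 and 1293. For 4 members the arrays rose in WT and fell in *vtc2*, and for 5 the reverse, against 3.76 and 3.74% of all probe sets.

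**Figure D5:**
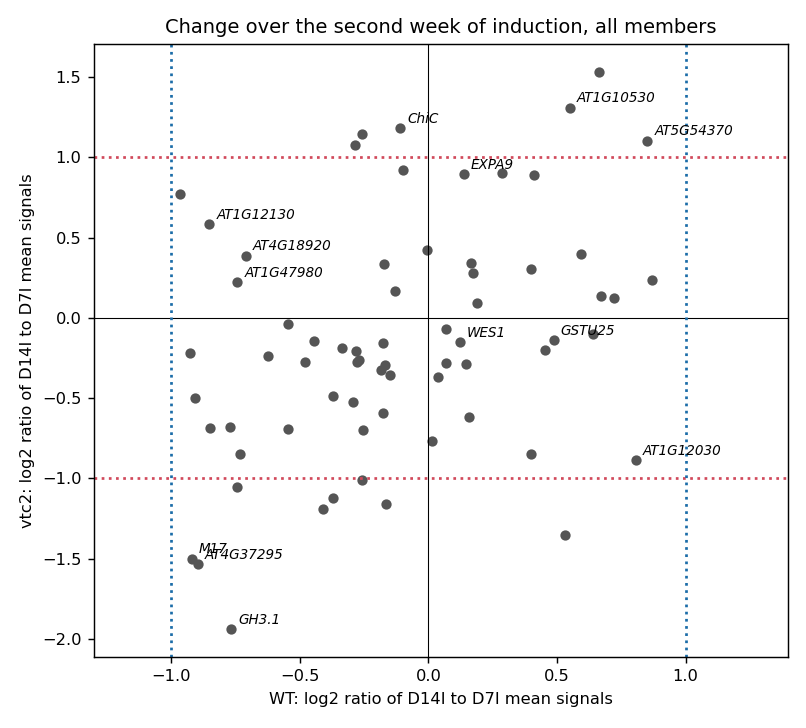
Log2 ratio of the D14I to the D7I mean signal in *vtc2* (vertical) against that in WT (horizontal) for the 68 members, with 2-fold limits dotted. No WT value passes 2-fold because the rule allowed none, and in *vtc2* 9 members are at least 2-fold lower and 6 at least 2-fold higher in D14I.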

How the data were processed

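Total RNA of 16 samples (3 μg each) was labelled and hybridized to ATH1 GeneChips. The authors read the arrays with GCOS and deposited linear intensities, with the 2% trimmed mean of each array at 500. The RMA values that the methods describe are not held by the table, and detection calls were not used here. After 64 controls were set aside, the rule was applied to the signals of 22746 probe sets. Log2 was taken without an offset, and the 8 *vtc2* arrays were fitted with limma 3.58.1 in R 4.3.3 (4 stage means, 4 residual and 1.51 prior degrees of freedom), since the WT arrays chose the members. The Benjamini-Hochberg adjustment ran over all 22746. The fit was tested on simulated data. Tests of the 8 *vtc2* arrays assume equal spread at all stages.

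The members and the gene lists were chosen with earlier results of these data known. Genes named are members paired with 1 gene that had the highest WT induction signals or ratios, belonged to a list, changed most between D7I and D14I or between genotypes, or came least near the rule in *vtc2*, which gives 31 of the 35. The probe sets just outside the fold limit are named too. *IAGLU* and the list genes that are no members were picked as examples after their values were seen. Sequences and promoter motifs were not analysed here. Replicate numbers were not used as pairs in the main fit. Over 6 pairs of *vtc2* groups the correlation of replicate deviations was -0.101 to 0.0443. Over all 28 pairs of groups it was -0.137 to 0.165, with 3 above 0.1. Such correlations cannot show whether samples were paired.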

Additional observations from a re-analysis of the deposited data

Results flagged for a closer look

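A few of the named members moved in opposite directions in the 2 genotypes, every array of one group lying above and, in the other genotype, every array lying below. None of these differences between the genotypes was tested, and the WT arrays also chose the members. By limma none of the *vtc2* differences given here passed, though that of *AT5G60530* did under quantile normalization and median centring. From D7I to D14I, 4 of the 68 rose in WT and fell in *vtc2* and 5 did the reverse, against 3.76 and 3.74% of all probe sets. *ChiC* was higher in D7I than in SE in WT, by 2.76 on the log2 scale, and differed by -0.70 in *vtc2*. From D7I to D14I, *AT4G18920* differed by -0.71 in WT and by 0.39 in *vtc2*, and *AT1G12130* differed by -0.85 in WT and by 0.62 in *vtc2*. *AT1G12030* differed by 0.81 in WT and by -0.89 in *vtc2* over the same week. *AT5G60530* was higher in SE than in ZE in WT, by 1.65, and differed by -2.28 in *vtc2*, on signals of 73.0 and lower in every embryo array.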

How the results depend on the processing

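With 2 arrays a group, a member's call between 2 stages rests on few degrees of freedom, and signals below 30 carry folds of uncertain size. Of the 68 members, those called between D7I and ZE numbered 64 to 68 when 1 *vtc2* array was left out, between D7I and SE 53 to 65, between D14I and ZE 66 to 68, between D14I and SE 53 to 63, and between SE and ZE 33 to 36. The 2 calls between D14I and D7I became 0 in every such case, with 12 to 23 members under an unadjusted p of 0.05. With 1 probe set per gene, which leaves only members with a gene, the counts were 35 for D7I and ZE, 31 for D7I and SE, 35 for D14I and ZE, 30 for D14I and SE, 20 for SE and ZE and 0 for the 2 induction times. The count between D14I and D7I was also 4 with a filter on low signals, 1 with median centring, 13 with an offset of 30, 0 with the compared stages only, 8 with a trended prior and 15 by a 2-fold change alone. With the replicate number as a block it was 0, and the others, in the same order, were 67, 60, 68, 60 and 36. The members found by the rule numbered 68 to 99 without 1 WT array, 77 under quantile normalization, 82 under median centring, 100 at 3-fold and 41 at 6-fold. Those that also met it in *vtc2* numbered 26 to 32 without 1 array, 45 at 3-fold, 14 at 6-fold and 47 without the limit on the 2 induction times. The 51 members below WT at D14I were 51 and 55 under quantile normalization and median centring, which were chosen after seeing the data. Of all probe sets, 21.8 and 22.2% were below WT under these settings. Over the named genes and these settings 77 refitted differences lost a call, 82 gained one, 3561 kept theirs and 0 reversed, and the cause of the changed counts was not tested.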
